A study of Arabidopsis thaliana with 44 samples.

Results

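The histone variant H2A.Z was compared between shoots of the Arabidopsis thaliana mutant pie1-5 and wild type (WT) in 2 deposited region tables, 1 per replicate. Each table sets 1 pie1-5 anti-H2A.Z chromatin immunoprecipitation (ChIP) library against 1 WT library. The tables are called replicate 1 and replicate 2 below; replicate 1 held 17310 regions and replicate 2 16806, together 34116 of the 131416 ChIP regions of the series. All of them were used, and 14595 regions could be paired between the tables, which is 84.3% of replicate 1 and 86.8% of replicate 2.

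All plants were 3 weeks old, grown on soil in 16 h of light after 3 days of stratification at 4 °C, and the shoot was harvested. The groups used here are WT and pie1-5 with 2 H2A.Z libraries each, pie1-5 with 2 libraries for trimethylated lysine 27 of histone H3 (H3K27me3), and 3 RNA-seq libraries for each genotype. The H2A.Z tables of the mutants pkl-1 and clf-28, which were set against the same WT libraries, serve as a reference. The anti-H2A.Z antibody was a rabbit polyclonal, and no value below is relative to input DNA or to histone H3, whose libraries were not analysed here. The labels give the mutants by allele name only. What the pie1-5 lesion is, they do not say.

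PIE1 is the ATPase of the plant SWR1 complex, which exchanges H2A for H2A.Z in nucleosomes. H2A.Z in Arabidopsis lies at the nucleosomes after the start of many transcribed genes and along the bodies of genes that respond to the environment or are kept silent. Loss of SWR1 subunits is known for early flowering and for low expression of the floral repressor FLC. PKL is a chromatin remodeller and CLF a Polycomb methyltransferase that places H3K27me3.

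PIE1 RNA stood at 8.10, 6.86 and 10.1 CPM (counts of a gene per TMM-scaled library size) in the WT libraries and at 3.73, 3.95 and 5.69 in pie1-5. The groups did not overlap, but the difference did not pass the threshold (log2 fold change -0.90, SE 0.27, adjusted p = 0.0565, edgeR). The RNA libraries held 24.9 to 32.2 M counted reads. Photosynthesis transcripts, which define green shoot tissue, summed over 18 genes to 34314 to 35175 CPM in WT and 23990 to 28934 in pie1-5. The summed level of 6 root markers was low but higher in pie1-5, at 96.3 to 112 CPM against 49.6 to 68.4. COBL9 was at 0 throughout. Much of that sum is PYK10, described below. Of the 3 root markers tested in RNA, 1 was called higher, PYK10, and 0 lower. Anther and pollen markers summed to 0.413 to 1.61 CPM in WT and 0.591 to 4.68 in pie1-5. The part of these tissue differences in the results below was not tested, and in bulk tissue fewer cells of a type and less RNA per cell cannot be told apart.

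The tables of replicate 1 and replicate 2 differed most around the centromeres. In 110 of 121 windows of 1 Mb along the chromosomes, the median log2 ratio of pie1-5 to WT in RPM (reads scaled to the library total) lay between -1.31 and -0.60 in replicate 1 and between -0.54 and -0.29 in replicate 2. In the other 11 windows the medians of replicate 1 were 2.88 to 3.22, while those of replicate 2 were -0.58 to 0.31. These windows were picked by these values, so the numbers are a description; they lie around the centromeres of all 5 chromosomes, where the genome is rich in repeats.

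In those windows replicate 1 held 796 regions with a median ratio of 8.54, which took 23.3% of all reads of the first pie1-5 library and 3.69% of its WT partner. Replicate 2 held 139 regions there with a median ratio of 0.740, and they took 0.558% and 0.445% of the reads. Within replicate 1 the pie1-5 library was thus far above its WT partner there. Shares of the 2 replicates are over unlike regions, which covered 3.73 Mb of the windows in replicate 1 and 0.330 Mb in replicate 2. The first clf-28 library also had more reads there than WT, 10.2% against 2.79%, whereas the first pkl-1 library had 3.10% against 2.81%. Outside the windows the median ratios were 0.448 in replicate 1 and 0.749 in replicate 2, close to the values over all regions. Both use library totals that still hold the reads of the windows, so they do not show how these reads affect the ratios. The test against WT below is also given with the windows left out of the library totals.

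**Figure D1:**
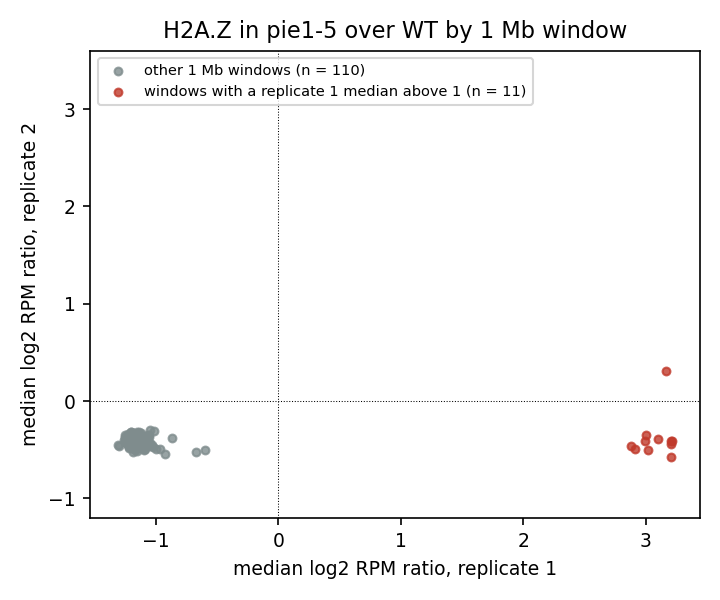
Each point is a 1 Mb window, with the median log2 RPM ratio of pie1-5 over WT in replicate 1 on the x axis and in replicate 2 on the y axis. The 110 grey windows lie below 0 in both tables, and the 11 red windows, picked for a replicate 1 median above 1, lie at 2.88 to 3.22 in replicate 1 but at -0.58 to 0.31 in replicate 2.

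H2A.Z was lower in pie1-5 over most of the regions in both replicates, to a median of 0.455 of WT in replicate 1 and 0.749 in replicate 2. The ratio was below 1 in 16221 regions of replicate 1 (93.7%) and in 15643 of replicate 2 (93.1%). Of the paired regions, 13631 (93.4%) were below 1 in both tables and 28 (0.192%) were above 1 in both. A further 911 were below 1 in replicate 1 only and 25 in replicate 2 only. The direction was mostly shared while the size differed, since the paired medians were 0.446 and 0.752, or -1.17 and -0.41 on the log2 scale. Across the paired regions the log2 ratios of the tables had a Pearson correlation of 0.31, a description over regions that share libraries.

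Per kb of region, both pie1-5 libraries were below both WT libraries in 12552 of the paired regions (86%) and above both in 12 (0.0822%). Only 4301 paired regions had identical boundaries in both tables, so comparisons across replicates are mostly over unlike intervals. The same limit applies to values in RPM per kb below where the boundaries differ. In the authors' deposited tables, which test the reads of 2 libraries against each other, 16172 regions (93.4%) of replicate 1 and 14661 (87.2%) of replicate 2 were lower at a false discovery rate (FDR) below 0.05. Higher by the same rule were 1048 (6.05%) and 256 (1.52%). In both tables, 12791 paired regions (87.6%) were lower and 12 (0.0822%) higher. At an FDR below 0.001 these counts were 11676 (80%) and 10 (0.0685%). These calls compare single libraries and carry no replicate error.

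The share of reads that fell in H2A.Z regions was 55.6% and 49.6% in the pie1-5 libraries and 64.3% and 64.2% in the WT libraries. The means were 52.6% ± 4.24 and 64.2% ± 0.0803 (SD, n = 2 each), a difference of -11.6 percentage points. The exact two-sided permutation test gave p = 0.33, the smallest that 2 against 2 libraries allow. Outside the centromere windows the shares were 32.3% and 49.0% in pie1-5 and 60.6% and 63.7% in WT, so both pie1-5 libraries stayed below both WT libraries. The library totals under these shares still hold the reads of the windows, 23.3% of the first pie1-5 library. The wider gap between the pie1-5 libraries is therefore no measure of how they differ outside the windows. The library totals were 8.22 and 10.3 M reads for pie1-5 and 19.1 and 19.3 M for WT.

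**Figure D2:**
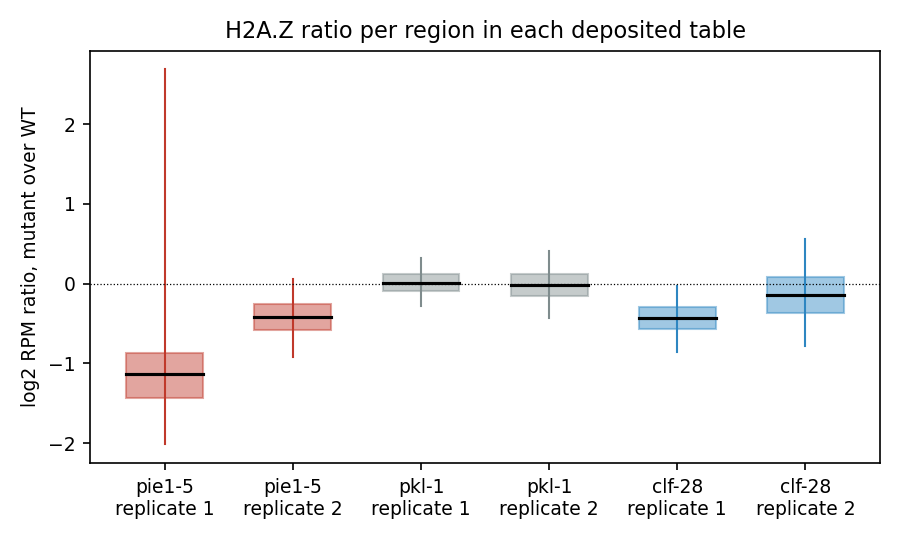
Log2 RPM ratio of mutant over WT per H2A.Z region in each of the 6 deposited H2A.Z tables, with the median as a black line, the quartiles as a box and the central 90% of regions as a thin line. The pie1-5 medians are -1.14 and -0.42, those of pkl-1 0.01 and -0.02, and those of clf-28 -0.43 and -0.15.

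With replicate spread taken into account, no single region passed as lower. edgeR's quasi-likelihood test over the 14595 paired regions, with library totals as the scale, called 0 lower (0%) and 3 higher (0.0206%) at an adjusted p below 0.05, with a median log2 fold change of -0.78. At an unadjusted p below 0.05 it had 463 lower and 4 higher. DESeq2 on the same totals called 0 lower and 2 higher, with 4693 lower at an unadjusted p below 0.05. With 3 libraries the replicate block cannot be kept. Without the block and without pie1-5 replicate 2 the test called 13862 regions lower, and without replicate 1 it called 0; without the block alone, on all 4 libraries, it called 0 lower and 3 higher. Leaving the centromere windows out of the library totals, a choice made after seeing the data, gave 4 lower and 4 higher, with 6178 lower at an unadjusted p below 0.05. The median log2 fold change was then -0.61 instead of -0.78.

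H2A.Z in the other mutants, read against the same WT libraries, was nearer to WT in each replicate. In pkl-1 the median ratios were 1.01 and 0.987, and in clf-28 0.741 and 0.904. The clf-28 ratio of replicate 1 was no higher than the pie1-5 ratio of replicate 2 (0.749), so these 2 mutants overlapped. Set directly against pkl-1 over 9597 regions paired in all 4 libraries, pie1-5 was below pkl-1 in both replicates in 9105 (94.9%), with a median log2 fold change of -0.72. Against clf-28 over 14091 regions it was below in both replicates in 11312 (80.3%), with a median of -0.47. edgeR called 0 regions (0%) in either direction in both comparisons. At an unadjusted p below 0.05 it had 100 lower and 1 higher against pkl-1, and 1884 lower and 0 higher against clf-28. These values use library totals as the scale. With TMM factors, which scale the libraries to the bulk of the regions, it called 2 of 9597 lower and 90 higher against pkl-1. Against clf-28 it then called 0 in either direction. The medians with TMM factors were 0.10 and 0.05. With library totals, without the block and without pie1-5 replicate 2, the medians were -1.12 against pkl-1 and -0.89 against clf-28. Without pie1-5 replicate 1 they were -0.35 and -0.10, so the size of the difference from clf-28 depended on the first pie1-5 library.

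The lower H2A.Z was seen on every chromosome, and the ratios varied with the width of a region. These chromosome values are of paired regions outside the centromere windows. Over the 5 chromosomes the median ratio of replicate 2 ranged from 0.736 on chromosome 1 to 0.782 on chromosome 5. That of replicate 1 ranged from 0.441 to 0.452. Paired regions of at most 600 bp had median ratios of 0.359 and 0.725, and those over 4000 bp 0.488 and 0.757. Both tables thus had the lower ratio in the narrow regions, by a larger margin in replicate 1. Read counts per region are lower in narrow regions, and their part was not tested.

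Regions that also carried H3K27me3 had slightly higher ratios, a difference that was not tested. The 4888 regions covered by H3K27me3 in both tables had median ratios of 0.487 and 0.768, and the 8096 without it 0.408 and 0.739. The covered regions were wider, with a median of 2200 bp against 1200 bp, so width and H3K27me3 moved together here. Regions that held a gene (13560) and regions that held none (1035) had nearly the same medians, 0.446 against 0.448 in replicate 1 and 0.754 against 0.727 in replicate 2. When the regions were split into 5 equal bins by mean density, 83.7% of the densest bin and 96.7% of the least dense were below 1 in both tables. That density includes the pie1-5 libraries, so the bins are not independent of the ratios.

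H3K27me3 was also below WT in most regions, with ratios nearer to 1. Over 5180 paired H3K27me3 regions the median ratios of pie1-5 to WT were 0.734 and 0.873, and 3143 (60.7%) were below 1 in both tables. The tables share 1 WT library, counted once in the fit, so the spread comes from the 2 pie1-5 libraries alone. edgeR called 0 lower (0%) and 1 higher (0.0193%), on chromosome 2 from 3259601 to 3509800, with a log2 fold change of 0.98 (SE 0.09, adjusted p = 1.51e-24). With TMM factors this region was not called. It spans the chromosome 2 H2A.Z region described below, which lies in the nuclear copy of the mitochondrial genome. The H3K27me3 level there is uncertain for the reason given below.

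H2A.Z rose in 3 regions, of which those on chromosomes 2 and 5 lie in the centromere windows. On chromosome 4, 5267801 to 5268400 in TAIR10, over AT4G08340, the RPM per kb of region were 106 and 122 in pie1-5 and 11.8 and 13.5 in WT. Both pie1-5 libraries were far above both WT libraries, a log2 fold change of 3.18 (SE 0.65, adjusted p = 0.0115, edgeR). This region, 0.6 kb wide in replicate 1, was paired with a region of 0.2 kb in replicate 2. On chromosome 5, 11752601 to 11784600, the values were 23.9 and 38.5 against 2.30 and 5.17, a log2 fold change of 3.15 (SE 0.66, adjusted p = 0.0115). This 32.0 kb region of replicate 1 was paired with a region of only 0.6 kb in replicate 2.

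The widest of the 3 covered 92.6 kb of chromosome 2, from 3417201 to 3509800, inside the nuclear copy of the mitochondrial genome that this chromosome is known to carry. It had 24.5 and 19.3 RPM per kb in pie1-5 and 4.56 and 3.33 in WT, a log2 fold change of 2.48 (SE 0.56, adjusted p = 0.0424). The call was lost with at least 100 reads required in both tables (adjusted p = 0.0606). Of 47 genes in it tested in RNA, 3 were higher and 0 lower, against 3.8% and 3.56% of all genes tested. Reads of mitochondrial DNA and of its nuclear copy can be split between the copies, so the level of this region is uncertain. Without the replicate block alone all 3 were called (adjusted p = 1.18e-06 to 0.000176). Without the block and without pie1-5 replicate 1 (adjusted p = 0.0556 for each) or either WT library (0.763 and 0.796) none was called, while the log2 fold changes over the leave-outs stayed at 2.26 to 3.75.

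The regions furthest below WT were narrow, and none passed the test. On chromosome 4, 5494801 to 5495200, the pie1-5 libraries held 9 and 30 reads and the WT libraries 146 and 205, ratios of 0.143 and 0.274. On chromosome 1, 15652801 to 15653200, they held 9 and 17 reads against 184 and 106, ratios of 0.113 and 0.301. The other 3 regions among the 5 largest had ratios of 0.0168 to 0.0768 in replicate 1 and of 0.458 to 0.586 in replicate 2. Their replicate 1 ratios rest on only 1, 3 and 5 pie1-5 reads, against 138, 141 and 151 in WT. Each was 0.4 kb wide in replicate 1, but 2.0, 1.2 and 0.6 kb in replicate 2, so the ratios of the replicates describe unlike intervals. The fitted log2 fold changes of all 5 regions had adjusted p = 0.410 each (edgeR).

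The gene lists are read against all paired regions, of which 93.4% were lower in both tables with median log2 ratios of -1.17 and -0.41, and against the 3.56% of all tested genes that fell and the 3.8% that rose in RNA. Of the genes of the SWR1 and H2A.Z machinery, 7 of 7 in paired regions were lower in both tables, with median log2 ratios of -1.42 and -0.40, and 1 of 9 tested fell in RNA with 0 rising. The region at PIE1 had 4.71 and 9.75 RPM per kb in pie1-5 and 12.98 and 15.6 in WT. At HTA11, which encodes an H2A.Z, the values were 10.4 and 17.5 against 22.8 and 27.1, and both pie1-5 libraries lay below both WT libraries. HTA8, another H2A.Z gene, had 5.74 and 17.5 against 25.5 and 23.0. ARP6, a further SWR1 subunit gene, had 11.96 and 26.2 against 23.4 and 28.4, so its second pie1-5 library lay between the WT libraries. None of these H2A.Z differences passed the test (adjusted p = 0.410 to 0.483), and RNA of HTA8, HTA9, HTA11 and ARP6 was not called.

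In the FLC clade of floral repressors 3 of 3 genes in paired regions had lower H2A.Z in both tables, as 93.4% of all paired regions did, and 4 of 6 genes fell in RNA against 3.56% of all genes. At MAF4 (chromosome 5, 25992201 to 25998400) H2A.Z stood at 7.40 and 12.3 RPM per kb in pie1-5 and 16.0 and 17.57 in WT. At MAF5 (26000401 to 26002600) it stood at 6.58 and 11.2 against 16.1 and 16.9. In both genes the pie1-5 libraries were below the WT libraries, with fitted log2 fold changes of -0.81 and -0.94 that did not pass the test (adjusted p = 0.410).

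MAF4 RNA was 1.99, 1.39 and 0.308 CPM in WT and 0.0622, 0.0318 and 0.0682 in pie1-5 (log2 fold change -4.42, SE 0.72, adjusted p = 0.00193). MAF5 RNA was 7.88, 4.60 and 1.19 CPM against 0.124, 0 and 0.307 (log2 fold change -4.98, SE 0.85, adjusted p = 0.0028). The groups did not overlap in either gene. FLC RNA was 0.750, 0.927 and 0.264 CPM in WT and 0.0934, 0 and 0 in pie1-5 (adjusted p = 0.0162). The call for FLC was lost without WT replicate 2, pie1-5 replicate 2 or pie1-5 replicate 3 (adjusted p = 0.0504 to 0.0524). The cDNA kit does not mark strand, so FLC and its antisense RNA cannot be told apart. FLC had different H2A.Z regions in the tables, with ratios of 0.458 and 0.854. No gene of the clade rose in RNA.

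**Figure D3:**
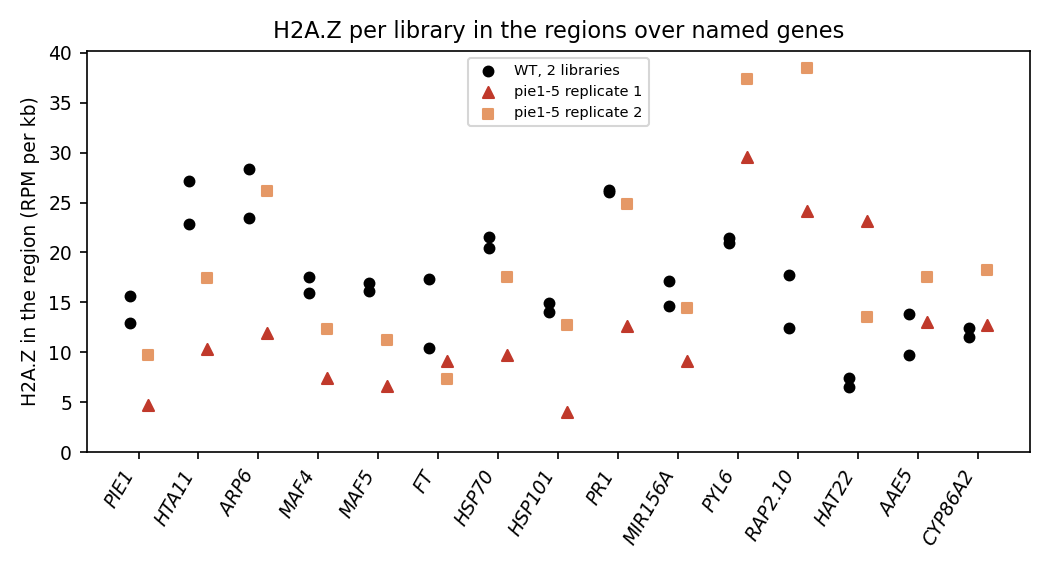
H2A.Z in RPM per kb in the region over each named gene, with the 2 WT libraries as black points, pie1-5 replicate 1 as a triangle and replicate 2 as a square. From PIE1 to MIR156A the first replicate is below both WT libraries, whereas at PYL6, RAP2.10, HAT22 and CYP86A2 both pie1-5 libraries are above both WT libraries.

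FT, the mobile flowering signal that FLC represses, had 9.12 and 7.30 RPM per kb in pie1-5 and 17.37 and 10.4 in WT. The FT region was 0.8 kb wide in replicate 1 and 6.8 kb in replicate 2, so only values within a replicate are over the same region. FT RNA was 0.863, 0.710 and 1.19 CPM in WT and 0.685, 3.53 and 3.24 in pie1-5, a difference that did not pass the test (adjusted p = 0.0768, edgeR). At MIR156A, the precursor of the juvenile-phase microRNA, H2A.Z was 9.12 and 14.4 against 17.2 and 14.7. All 5 of the microRNA156 and microRNA164 genes in paired regions were lower in both tables, and of the floral identity list 12 of 13, with medians of -0.81 and -0.27; over all paired regions the share was 93.4%. AP3, a petal and stamen identity gene, was higher in RNA at 0.654, 3.73 and 2.01 CPM against 0.0750, 0.309 and 0 (adjusted p = 0.0316). That call was lost without WT replicate 1 or 3 or pie1-5 replicate 2 or 3 (adjusted p = 0.0640 to 0.125), and its H2A.Z was 7.65 and 11.2 against 13.6 and 20.4.

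Heat shock genes, at which H2A.Z has been studied as part of the response to temperature, had H2A.Z ratios close to those over all paired regions. All 11 in paired regions were lower in both tables, against 93.4% of all, with medians of -1.24 and -0.43. HSP70 had 9.68 and 17.5 RPM per kb in pie1-5 and 20.5 and 21.5 in WT, and HSP101, a disaggregase, 3.99 and 12.8 against 14.02 and 14.9. In RNA, 1 of 11 tested heat shock genes rose and 0 fell, against 3.8% and 3.56% of all genes. HSP70 RNA was 20.3, 4.24 and 3.89 CPM in pie1-5 and 1.24, 1.27 and 3.43 in WT, which did not pass the test (adjusted p = 0.0656).

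Salicylic acid defence genes had H2A.Z ratios close to those over all paired regions, and 8 of 21 tested rose in RNA with 0 falling, against 3.8% and 3.56% of all genes. All 14 in paired regions were lower in both tables, against 93.4% of all, with medians of -1.06 and -0.39. WRKY70, a transcription factor of this response, had 6.79 and 6.35 RPM per kb of H2A.Z in pie1-5 and 13.2 and 13.5 in WT. Its RNA was 42.4, 87.1 and 49.1 CPM against 14.9, 18.3 and 16.6 (log2 fold change 1.84, SE 0.23, adjusted p = 0.000309). ICS1, which makes salicylic acid, had 7.58 and 12.3 RPM per kb of H2A.Z against 20.1 and 18.8, and its RNA was higher (log2 fold change 1.03, adjusted p = 0.0247) except without WT replicate 2 or 3 or pie1-5 replicate 2 or 3 (adjusted p = 0.0749 to 0.104). PR1, a marker of the response, had 12.6 and 24.8 against 26.0 and 26.2, and its RNA did not pass (adjusted p = 0.198).

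GI, a circadian clock gene, also rose in RNA, from 5.55, 4.32 and 5.05 CPM in WT to 7.00, 17.0 and 19.7 in pie1-5 (adjusted p = 0.00513). H2A.Z at GI was 4.87 and 10.3 RPM per kb against 19.4 and 15.3. Of the clock list 6 of 7 were lower in H2A.Z in both tables and of the anthocyanin list 10 of 11, near the 93.4% of all paired regions. In RNA 3 of 13 clock genes and 4 of 10 anthocyanin genes rose and 0 fell, against 3.8% and 3.56% of all genes. The root marker PYK10, a beta-glucosidase gene, rose in RNA to 56.1, 69.8 and 69.2 CPM from 22.4, 35.5 and 24.3 (adjusted p = 0.00149), with H2A.Z at 7.95 and 10.6 against 16.2 and 15.8.

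Genes of the jasmonate response were the least lowered list in replicate 2. Only 4 of 8 in paired regions were lower in both tables, and the medians were -1.13 in replicate 1 and -0.10 in replicate 2, against 93.4% and medians of -1.17 and -0.41 over all paired regions. In RNA 7 of 19 fell and 1 rose, against 3.56% and 3.8% of all genes. Cold and dehydration genes had medians of -0.94 and -0.15, with 9 of 10 genes in paired regions lower in both tables. Photosynthesis genes mostly had no H2A.Z region: 3 of 18 had one in replicate 1 and 1 of 18 in replicate 2, against 71.1% and 76.3% of all genes tested in RNA. No region of any list was called with library totals as the scale.

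**Figure D4:**
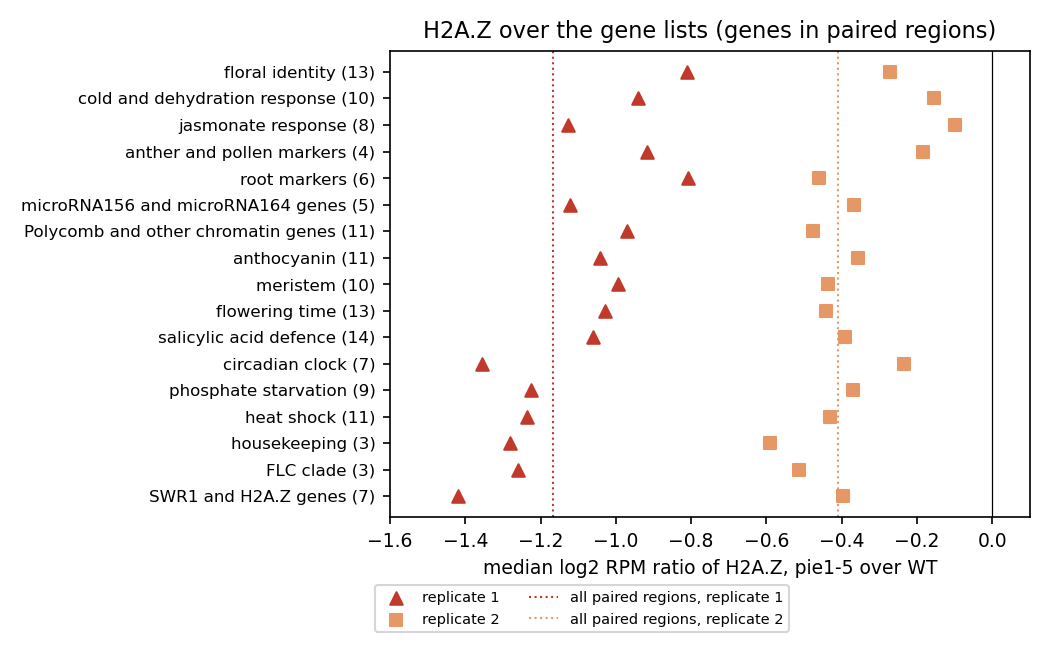
Median log2 RPM ratio of H2A.Z, pie1-5 over WT, of the genes of each list in paired regions (number in brackets), with triangles for replicate 1, squares for replicate 2 and dotted lines for the medians of all paired regions. Every list lies below 0 in both tables; the jasmonate list is at -0.10 in replicate 2 and the floral identity list at -0.81 in replicate 1.

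Relative to the median region, H2A.Z was higher over a small set of genes. With TMM factors, which scale the libraries to the bulk of the regions and move the median log2 fold change from -0.78 to 0.02, edgeR called 57 regions relatively higher (0.391%) and 5 relatively lower (0.0343%). Of the 57, 3 are the regions described above. By RPM, 30 of the other 54 were below WT in replicate 1 and 5 in replicate 2, 21 were above 1 in both tables, and 9 had both pie1-5 libraries above both WT libraries. These calls were lost without the replicate block: on all 4 libraries 2 regions were then called higher and 0 lower, among them 0 of the 54, although all 54 kept their sign. Without the block and without pie1-5 replicate 1 or 2 all 54 again kept their sign, and 0 and 1 were called. DESeq2 with its own size factors and the block called 18 higher, the 3 regions above and 15 of the 54, and 0 lower. Chosen after their values were seen, the genes below come from these regions.

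PYL6, an abscisic acid receptor gene (chromosome 2, 16845201 to 16845800), had 29.6 and 37.3 RPM per kb of H2A.Z in pie1-5 and 21.0 and 21.4 in WT. Both pie1-5 libraries exceeded both WT libraries, with a relative log2 fold change of 1.44 (adjusted p = 7.05e-05). Its RNA fell, from 15.5, 8.65 and 9.89 CPM to 0.467, 2.83 and 2.45 (log2 fold change -2.56, SE 0.44, adjusted p = 0.0027). RAP2.10, an AP2/ERF transcription factor gene, had 24.1 and 38.5 against 17.7 and 12.4 (relative log2 fold change 1.85, adjusted p = 1.08e-05). HAT22, a homeodomain-leucine zipper gene, had 23.1 and 13.6 against 7.47 and 6.52 (relative log2 fold change 2.09, adjusted p = 0.000255), and its RNA was not called (adjusted p = 0.130). DESeq2 with its size factors also called PYL6 (adjusted p = 0.00192), RAP2.10 (0.000114) and HAT22 (0.00401). On the scale of library totals none of the 3 was called (adjusted p = 0.410 to 0.414).

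AAE5, a gene for an acyl-activating enzyme, had 13.1 and 17.5 RPM per kb against 9.77 and 13.8. In each replicate pie1-5 was above its WT partner, with ratios of 1.34 and 1.27. Across replicates the groups overlapped, but the region differed in width between the replicates. AAE5 RNA fell from 36.4, 38.6 and 32.7 CPM to 13.2, 21.1 and 18.4 (adjusted p = 0.00281, edgeR). CYP86A2, a fatty acid hydroxylase gene of cutin synthesis, had 12.8 and 18.23 against 12.4 and 11.5. DELTA-TIP, a vacuolar aquaporin gene, had 11.6 and 18.6 against 13.2 and 13.5, and its RNA fell from 137, 116 and 116 CPM to 65.7, 40.8 and 33.6 (adjusted p = 0.00157). At AOC1, an allene oxide cyclase gene of jasmonate synthesis, H2A.Z was 8.04 and 13.7 against 11.4 and 5.56, a pair of WT values that differ as much as the pie1-5 values. AOC1 RNA fell from 59.6, 130 and 190 CPM to 12.9, 22.6 and 28.02 (adjusted p = 0.00139). DESeq2 called H2A.Z as relatively higher at AAE5 (adjusted p = 0.0120) and CYP86A2 (0.00711) but not at DELTA-TIP (0.753) or AOC1 (0.616).

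Of 48 genes in these 54 regions tested in RNA, 10 were lower (20.8%) and 0 higher, with a median log2 fold change of -0.24, against 3.04% lower, 4.8% higher and a median of 0.09 over the 12417 tested genes in paired regions. The genes lower in RNA and not yet described so were RAP2.10, CYP86A2, ILL6, BCB, LSH6 and CKX5; DESeq2 did not call the H2A.Z regions of the last 4 (adjusted p = 0.399 to 1.0). Without WT replicate 3 of the RNA libraries only 4 of the 48 genes were lower and 1 was higher. RAP2.10 (adjusted p = 0.145), ILL6 (0.0522), CKX5 (0.0587), BCB (0.170), LSH6 (0.0852) and CYP86A2 (0.117) lost their calls without that library. LSH6 and CYP86A2 also lost theirs without other libraries. PYL6, AOC1, DELTA-TIP and AAE5 stayed called in every leave-out.

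A cluster of 4 relatively higher regions lay on chromosome 5 over the tandem copies of the hydroxysteroid dehydrogenase genes HSD1, HSD4 and HSD7 and the genes AT5G50510 and AT5G50620. AT5G50620 had 11.7 and 14.9 RPM per kb in pie1-5 and 7.90 and 9.41 in WT. The copies are near-identical, so reads can be split between them and the levels are uncertain. RNA of these genes was not tested, as their counts were too low.

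The 5 relatively lower regions were narrow. AT1G21590 had 4.11 and 5.09 RPM per kb in pie1-5 and 19.5 and 21.5 in WT, ratios of 0.211 and 0.236 and a relative log2 fold change of -1.38 (adjusted p = 0.0170). AT1G70740 had 3.89 and 6.06 against 19.7 and 18.8 (relative log2 fold change -1.18, adjusted p = 0.0400), and emb2746 5.02 and 15.6 against 30.4 and 37.1 (relative log2 fold change -1.06, adjusted p = 0.0202). RNA of the last 2 was higher, with adjusted p = 0.0290 and 0.0278, and each call was lost in 4 of the 6 leave-outs (adjusted p of up to 0.129). On the scale of library totals none was called (adjusted p = 0.410). All 5 kept their sign without the replicate block, with all libraries or without either pie1-5 library, and none was then called; DESeq2 with its size factors called none (adjusted p = 0.748 to 0.893).

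In RNA, 725 of 20375 tested genes fell (3.56%) and 775 rose (3.8%). Of those that rose and could be placed, 86.7% lay in an H2A.Z region of replicate 1 and 88.2% in replicate 2; of those that fell, 60.8% and 68.8%; and of the rest, 70.9% and 76.1%. The genes that rose and those not called had nearly the same H2A.Z ratios, with medians of 0.437 and 0.432 in replicate 1 and both 0.757 in replicate 2. The genes that fell had less reduced H2A.Z, 0.491 and 0.795. Read against the same WT libraries in replicate 1 and in replicate 2, the genes that fell in pie1-5 had median log2 ratios of -0.02 and 0.00 in pkl-1 and -0.39 and -0.08 in clf-28. Genes not called had 0.02 and -0.01 in pkl-1 and -0.43 and -0.13 in clf-28.

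RNA calls were also counted by how much of a gene its H2A.Z region covers, with no test between the classes. In the regions of replicate 1, 128 of 1790 tested protein-coding genes covered over 99% rose (7.15%) and 39 fell (2.18%). Of 5444 genes with no H2A.Z region, 66 rose (1.21%) and 277 fell (5.09%). Genes covered from 75% to 99% rose in 7.71%. The genes without a region had the higher RNA level, a median of 3.13 log2 CPM against 0.56. In replicate 2 the genes covered over 99% rose in 7.29% and the genes without a region in 1.37%.

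The genes in paired regions were put into 10 equal bins by relative H2A.Z change. The share that fell in RNA was 1.45% in the bin with the lowest change and 6.36% in the bin with the highest. The share that rose was 5.31% and 3.62%. By the ratio of replicate 1 alone the share that fell went from 1.21% to 6.68%, and by replicate 2 alone from 1.93% to 4.59%. The median share of the gene covered by its region went from 22.5% to 62.3% across the same bins, so the bins differ also in how H2A.Z lies on the gene. The part of gene coverage and of RNA level in this relation was not tested. Over the other ways of testing RNA the shares that fell were 0.403% to 2.09% in the first bin and 3.22% to 9.74% in the last.

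**Figure D5:**
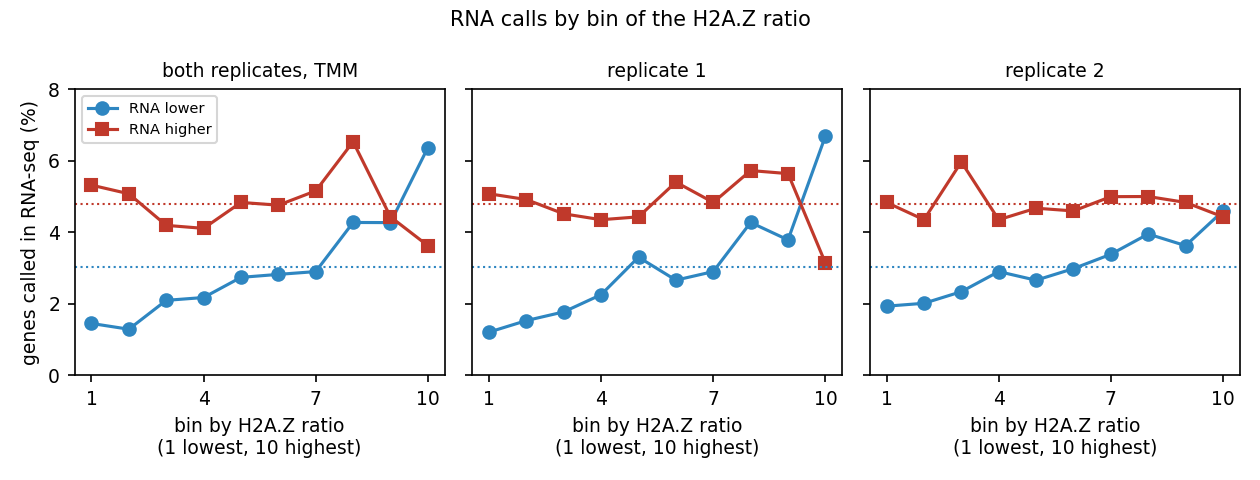
Share of genes called lower (blue) or higher (red) in RNA, in percent, by bin of the H2A.Z change in paired regions. Bins run from the lowest (1) to the highest (10) H2A.Z ratio. Dotted lines at 3.04% and 4.8% are the shares over all genes in paired regions. The panels order genes by the TMM fit of both tables, by replicate 1 and by replicate 2; the blue line ends at 6.36%, 6.68% and 4.59%.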

How the data were processed

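Per the submitters' processing notes, Trimmomatic, Bowtie2, SICER, edgeR, bedtools and deepTools were used with TAIR10, without versions or settings. Per the file headers, the authors deposited for each mutant library a region table with read counts, RPM, RPM ratios and p-values with an FDR; the RNA-seq table holds raw counts per gene. The design text calls the replicates biological.

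Library totals were recovered from counts and RPM. Regions were paired by best match both ways with an overlap of at least 50% of the shorter region. Those with at least 20 reads over the 4 libraries entered edgeR 4.0.16 (R 4.3.3; quasi-likelihood test, length offset, Benjamini-Hochberg over 14595 regions, threshold 0.05). The replicate was a block, because each table holds 1 library of each genotype over shared boundaries; deviations of same-numbered libraries had a correlation of 0.30 (0.17 over 4301 regions with identical boundaries). SEs come from the F statistic. RNA counts of all 12 libraries were fitted in edgeR with TMM, filterByExpr and no block; DESeq2 1.42.0 was an alternative. The code was tested on simulated data.

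Genes were placed by the RefSeq table (TAIR10.1), with at least 200 bp or the whole gene in a region; it gives no strand, so the planned placing by gene start was not done. Of 249 listed symbols, 242 matched. Named were the called regions, the 5 largest falls, up to 2 genes per list with the smallest adjusted p, and 16 fixed genes. Members, lists and rules were chosen with earlier results of these data known.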

Additional observations from a re-analysis of the deposited data

How the results depend on the processing

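Of the counts, shares and medians recomputed, 75 kept their value and 40 moved. Kept means within 1.5 times for counts, the same sign for shares and within 1 SD for medians. That SD is of the 2 replicate medians, 0.53 for H2A.Z against WT. It is a wide margin where replicates differ, so medians without 1 replicate are hardly tested by it. No called value of a single region or gene changed sign, but uncalled values did. Against WT, TMM factors gave 5 regions lower, 57 higher and a median log2 fold change of 0.022, DESeq2 with its own size factors 18 higher and a median of 0.0064, and an overlap of 80% of the longer region 0 higher of 8777. Library totals without the centromere windows, added after seeing the data, gave 4 lower and a median of -0.61. Leaving out a library gave 0 to 13862 lower, 0 to 7 higher and medians of -1.17 to -0.41, without the replicate block, which 3 libraries cannot keep, and with the lone library of a genotype assumed to vary like the others. Without the replicate block the H2A.Z test called 0 lower and 3 higher, with a median of -0.73; no call changed. On the TMM scale, alternatives added after seeing the data gave, without the block, 0 lower, 2 higher and a median of 0.021, and without the block and either pie1-5 library 0 lower, 1 to 4 higher and medians of -0.047 to 0.029. Against pkl-1, TMM factors gave 2 lower, 90 higher and a median of 0.10, and leave-outs 0 to 9180 lower, 0 to 3 higher and medians of -1.12 to -0.35. Against clf-28, TMM factors gave a median of 0.051, and leave-outs 0 to 3747 lower and medians of -0.89 to -0.10. For H3K27me3, TMM factors gave 0 higher and a median of 0.011, leave-outs, which have no test, gave medians of -0.45 to -0.17, and no paired analysis was possible because both tables hold 1 WT library. For RNA, DESeq2 gave 1230 higher, no filter 1321 higher, and leave-outs 377 to 977 lower and 372 to 1034 higher. RNA numbers did not pair the libraries (correlations of 0.03, -0.05 and 0.07 between same-numbered libraries; 2 of 3 WT and 1 of 3 pie1-5 libraries correlated best with their own number), and with the replicate block 757 genes were lower and 752 higher. The cause of these shifts was not tested. For H2A.Z regions named by their genes, with library totals, 22 values in 14 regions changed sign, none called on either side. TMM factors gave log2 fold changes of 0.041 at FT, 0.34 at MIR156A, 0.25 at PR1, 0.27 at ARP6, 0.12 at HSP70 and 0.00062 at PYK10, and DESeq2 with its size factors 0.052, 0.33, 0.23, 0.25 and 0.11 at the first 5. Without pie1-5 replicate 1 ARP6 was at 0.016. Without pie1-5 replicate 2 the values were -0.19 at ILL6 and DELTA-TIP, -0.29 at LSH6, -0.11 at CKX5, -0.095 at AOC1, -0.063 at BCB, and -0.23 and -0.25 in 2 regions of the HSD copies. Without either WT library ILL6 ran from -0.72 to 1.45 and AOC1 from -0.075 to 0.96. In RNA, 5 values of 2 uncalled genes changed sign; leave-outs ran from -0.15 to 1.39 for HSP101 and from -0.36 to 0.31 for HTA8, which DESeq2 put at 0.013. Among single results, 10 values for H2A.Z regions, 62 for relative H2A.Z and 29 for RNA lost their call under some alternative, and 53, 0 and 14 gained one. The placing of genes by 500 bp after their start was not run. The depth limit is the 2 libraries per genotype, with pie1-5 totals of 8.22 and 10.3 M reads.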
